A study of Mus musculus with 4 samples.

Results

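Adrenomedullin signalling and hypoxia-induced transcripts were examined as a set of 9 mouse genes: the peptide Adm, the receptor subunits Calcrl, Ramp2 and Ramp3, and the hypoxia-induced genes Igfbp3, Bnip3, Ddit4, Egln3 and Higd1a. The genes were selected on levels and genotype differences seen earlier in these same counts, so their levels and differences are descriptions and were not tested. All 9 symbols matched 1 gene each among the 32285 genes of the count matrices. Their transcripts were followed in barcodes of endothelial cells, mural cells (pericytes and vascular smooth muscle), macrophages, fibroblasts and retinal pigment epithelium (RPE), found by marker genes. The tissue was RPE-choroid, the pigment epithelium and vascular layer behind the retina, dissociated enzymatically and profiled by droplet-based single-cell RNA sequencing with unique molecular identifiers (UMIs). Tissue came from Vldlr-/- mice, which lack the very low density lipoprotein receptor, and from wild-type (WT) mice, each at 1 and 2 months of age. Each genotype and age was represented by 1 library. The number of animals pooled in a library and any further alleles were not given in the sources used here. With 1 library per group no test between genotypes was made, the ages were not used as replicates of each other, and every interval below covers counting error only, not the spread between animals.

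Adrenomedullin is a secreted peptide that widens vessels and is needed for the growth and tightness of blood and lymph vessels. Its receptor is the calcitonin receptor-like receptor, encoded by Calcrl, which reaches the cell surface only with a partner of the RAMP family; with RAMP2 or RAMP3 it binds adrenomedullin, and with RAMP1 it binds calcitonin gene-related peptide. Low oxygen stabilises hypoxia-inducible factor (HIF) subunits, which bind hypoxia response elements and raise transcription of Adm, Igfbp3, Bnip3, Ddit4, Egln3, Higd1a and many glycolytic genes.

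HIF binds at a core ACGTG or GCGTG, and both were searched for on either strand (CACGT and CACGC on the other), as a description of the sequence and not of factor binding, in the 250 bases before each gene's RefSeq start on GRCm38.p6. RefSeq's promoter table held 8 of the 9 genes and lacked Ramp2. The sequences below are those of the peptide gene and of the 3 hypoxia-induced genes with the largest genotype differences among the results that follow, written 5′ to 3′ on the gene's strand with core matches in capitals; Bnip3 and Ddit4 are shortened to the bases outside the annotated gene.
Adm chr7:110627407-110627656 (plus strand): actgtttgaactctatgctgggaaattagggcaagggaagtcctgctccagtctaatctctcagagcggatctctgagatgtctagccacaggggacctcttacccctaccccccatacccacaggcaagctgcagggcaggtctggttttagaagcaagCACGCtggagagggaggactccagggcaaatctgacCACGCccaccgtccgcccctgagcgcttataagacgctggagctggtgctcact
Igfbp3 chr11:7213924-7214173 (minus strand): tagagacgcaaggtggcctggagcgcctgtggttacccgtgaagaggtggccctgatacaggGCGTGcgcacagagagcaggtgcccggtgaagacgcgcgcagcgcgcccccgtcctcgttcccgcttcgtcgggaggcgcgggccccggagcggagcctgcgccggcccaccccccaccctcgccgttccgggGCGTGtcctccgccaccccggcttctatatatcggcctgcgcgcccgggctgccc
Bnip3 chr7:138909520-138909756 (minus strand): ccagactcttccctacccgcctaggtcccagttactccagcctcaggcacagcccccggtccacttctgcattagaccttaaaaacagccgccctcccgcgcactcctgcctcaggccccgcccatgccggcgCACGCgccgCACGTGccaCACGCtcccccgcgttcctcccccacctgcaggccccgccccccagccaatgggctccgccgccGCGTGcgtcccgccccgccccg
Ddit4 chr10:59951835-59952020 (minus strand): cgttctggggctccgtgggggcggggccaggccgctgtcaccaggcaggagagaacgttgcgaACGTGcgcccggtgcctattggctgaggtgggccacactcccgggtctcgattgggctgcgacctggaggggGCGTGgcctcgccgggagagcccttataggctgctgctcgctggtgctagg
The Bnip3 window held 5 core matches, 2 of which were the CACGTG palindrome read on both strands. The windows of Adm, Igfbp3, Ddit4, Ramp3 and Higd1a held 2 matches each, that of Egln3 held 1 and that of Calcrl none. The Higd1a window, before its RefSeq start, lies wholly inside the annotated gene. At least 1 match was present in 38.6% of the 32851 windows in the table, at least 2 in 16.7%, at least 4 in 2.58% and CACGTG in 6.02%.

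The libraries held 12022513 UMIs (Vldlr-/-, 1 month), 11194301 (WT, 1 month), 16292472 (Vldlr-/-, 2 months) and 23070271 (WT, 2 months). After a minimum of 300 genes and a maximum of 30% mitochondrial UMIs, barcodes numbered 1819, 1549, 1140 and 2047 in the same order, with median depths of 5084 to 9029 UMIs. The libraries shared at most 1 barcode sequence. Barcodes per class are given as Vldlr-/- and WT: 22 and 5 endothelial, 17 and 20 mural, 34 and 29 macrophage, 493 and 336 fibroblast, and 165 and 236 RPE at 1 month, and 95 and 74 endothelial, 46 and 55 mural, 55 and 57 macrophage, 179 and 136 fibroblast, and 606 and 1458 RPE at 2 months. Each class held its own markers, all of them in every library except Best1 in the RPE class at 1 month. At 2 months the 12 endothelial markers summed to 13067 CPM (UMIs per 1000000 UMIs of the class) in Vldlr-/- and 14551 CPM in WT endothelial barcodes. Vldlr itself reached 10.7 CPM in Vldlr-/- RPE, against 130 CPM in WT RPE at 1 month, and 27.0 CPM in Vldlr-/- RPE, against 177 CPM in WT RPE at 2 months. In rods the gap was smaller, at 212 CPM in Vldlr-/- and 297 CPM in WT at 1 month, and 249 CPM in Vldlr-/- and 285 CPM in WT at 2 months. Whether the counted 3′ end lies in the deleted stretch was not given. Comparisons between genotypes were made where both libraries had at least 30 barcodes of a class, that is in fibroblasts and RPE at both ages and in endothelial, mural and macrophage barcodes at 2 months. Rod markers put free RNA at 5.60 to 14.6% of UMIs in RPE and at 0.77 to 7.47% in the other classes, as an estimate. The ages also differed in software version, and the fibroblasts of the 2 ages fell mostly in different clusters, so age and these differences cannot be told apart. The 2-month macrophages held RPE markers at 518 CPM in Vldlr-/- and 2739 CPM in WT, and mural barcodes at 2432 CPM in Vldlr-/- and 5745 CPM in WT; their part in the results was not tested. The macrophage class is the cluster led by C1q genes; a neighbouring cluster led by Lyz2, Plac8 and Ear2 was kept apart after the clusters were seen.

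The 9 genes were spread unevenly over the classes. Ramp3 and Igfbp3 were concentrated in endothelial barcodes, Calcrl in endothelial and fibroblast barcodes, and Ramp2 in endothelial, fibroblast and RPE barcodes. Adm and Egln3 were sparse in every class. A gene was counted as measured in a comparison when both libraries together held at least 30 UMIs of it. The difference was given as log2 of the Vldlr-/- over the WT CPM with 0.5 counts added, so that positive values mean higher in Vldlr-/-, and 2-fold was the size counted. In endothelial barcodes at 2 months 1 of 8 measured members was at least 2-fold higher and 0 lower, where 3.15% of all 8592 genes were higher and 2.05% lower (5.2% in either direction). In mural barcodes 0 were higher and 1 of 4 lower (2.31% and 2.58% of 5804 genes, 4.89% together), and in macrophages 1 was higher and 1 lower of 3 (3.82% and 3.27% of 5162 genes, 7.09% together). In fibroblasts 0 of 8 passed 2-fold at 1 month (2.0% higher and 1.61% lower of 10987 genes, 3.61% together), and 1 was higher and 1 lower of 6 at 2 months (2.39% and 1.34% of 9934 genes, 3.72% together). In RPE none of 2 passed at 1 month (3.48% higher and 2.8% lower of 3647 genes, 6.28% together) and none of 4 at 2 months (3.27% and 1.08% of 11856 genes, 4.35% together). With so few members each of these shares rests on 1 or 2 genes.

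**Figure D1:**
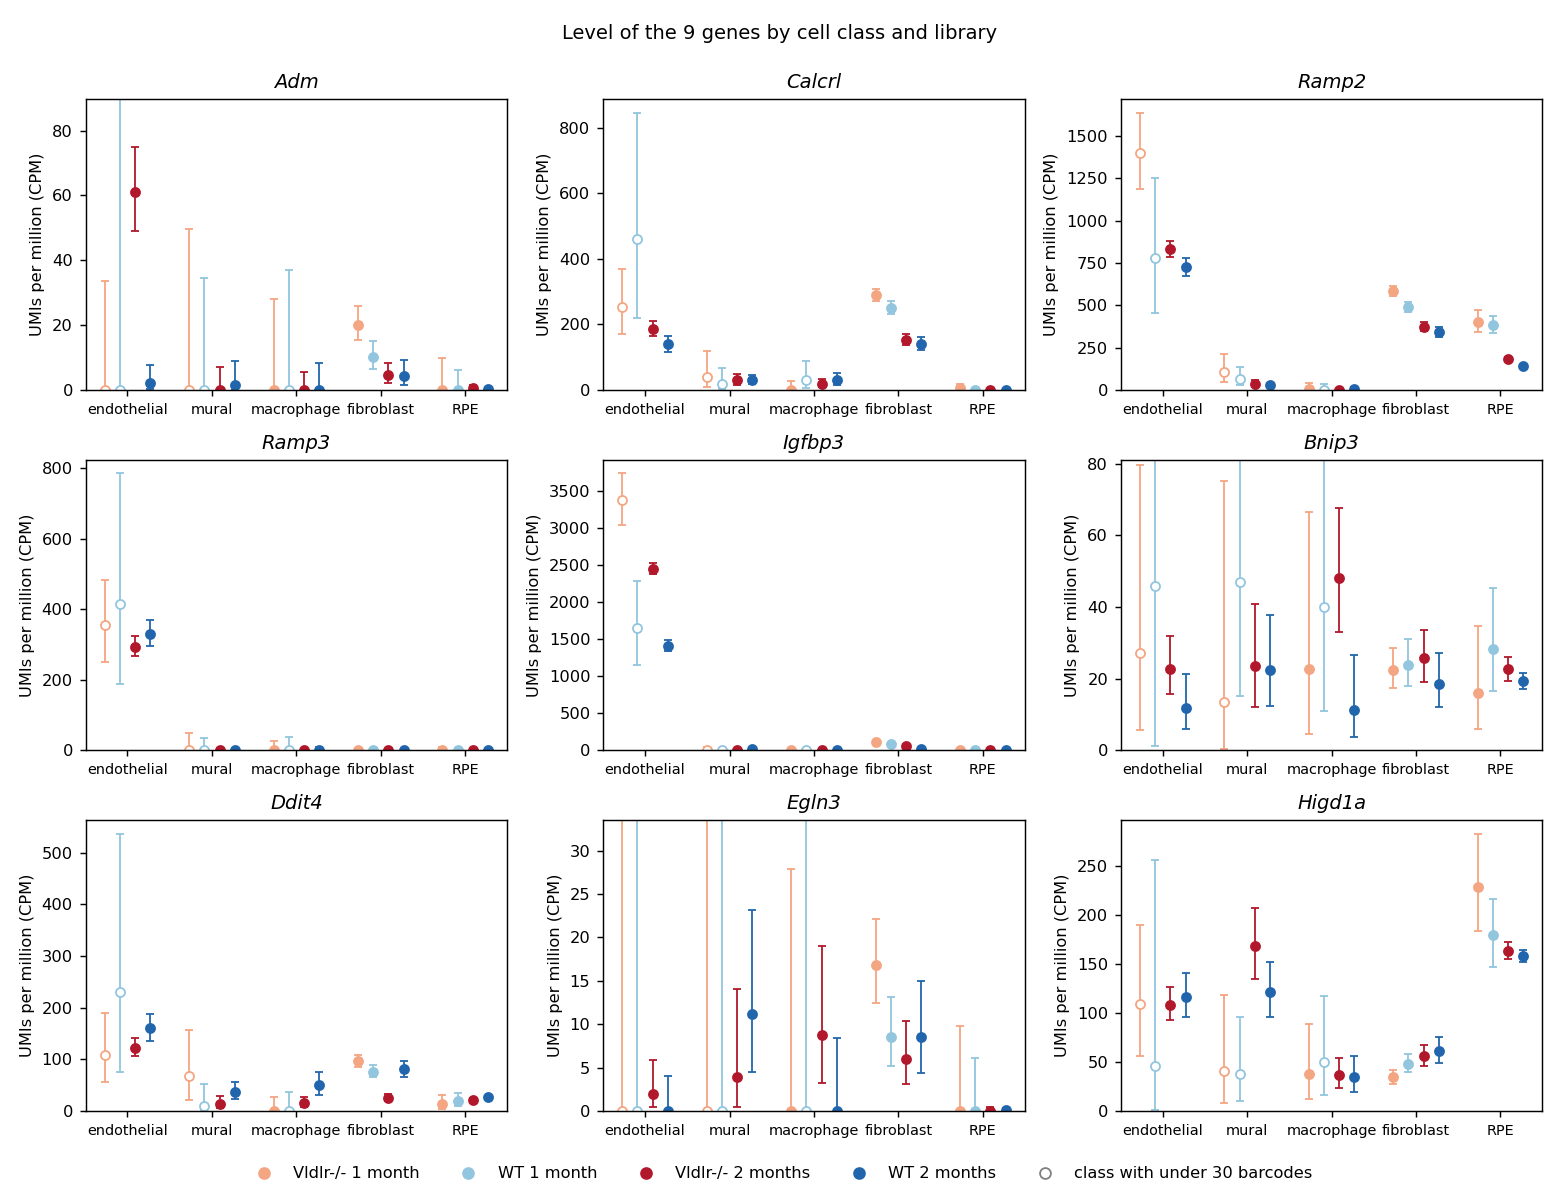
Level of each of the 9 genes in CPM of the summed UMIs of a class, for the 5 classes and both ages, with Vldlr-/- left of WT. Bars are exact Poisson 95% intervals, open circles mark classes under 30 barcodes, and intervals of such classes are clipped in the Adm, Bnip3 and Egln3 panels. Ramp3 and Igfbp3 stand out in endothelial barcodes, and Ddit4 in 2-month fibroblasts is lower in Vldlr-/- (25.7 CPM) than in WT (80.5 CPM).

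**Figure D2:**
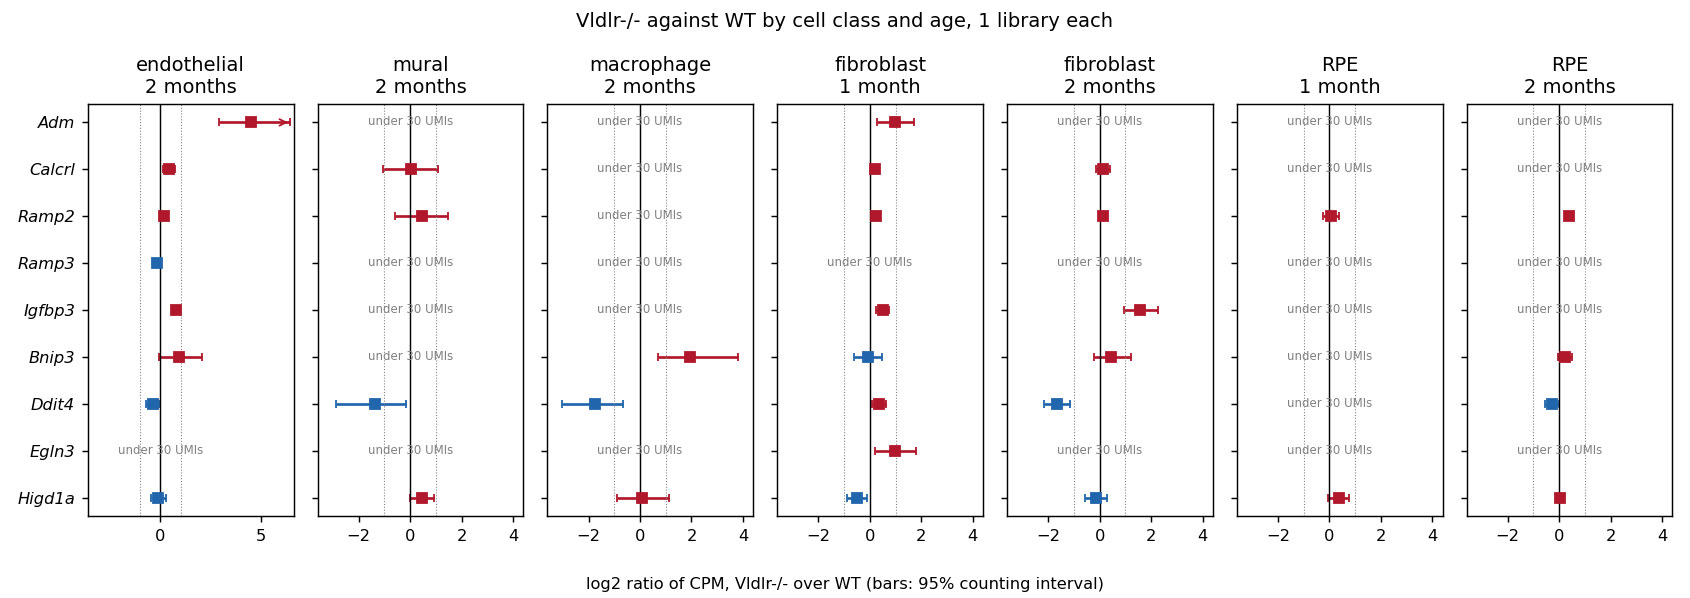
Log2 of the Vldlr-/- over the WT level for each gene in the 7 comparisons; bars are exact 95% counting intervals and dotted lines mark 2-fold. Genes under 30 UMIs are marked as such and have no point, and the upper bound for Adm in endothelial barcodes (7.89) lies beyond the axis, as the arrow shows.

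Adm, the peptide gene (ENSMUSG00000030790, chr7:110627661-110629820, plus strand, GRCm38), was detected mainly in endothelial and fibroblast barcodes. Endothelial barcodes at 2 months held 91 Adm UMIs in Vldlr-/- (60.9 CPM, 49.1 to 74.8) and 2 UMIs in WT (2.16 CPM, 0.261 to 7.79), a log2 ratio of 4.51 (2.93 to 7.89). At 1 month the 22 Vldlr-/- and 5 WT endothelial barcodes held 0 Adm UMIs, which allows up to 27.2 CPM in Vldlr-/- and 138 CPM in WT (3 counts of the class total). The 2-month difference came from few barcodes: 5 Vldlr-/- and 2 WT barcodes had any Adm UMI, and 1 Vldlr-/- barcode held 72 of the 91. That barcode had 64098 UMIs, with RPE markers at 30313 CPM beside endothelial markers at 5960 CPM. A second Vldlr-/- barcode, with 29546 UMIs, held 16 Adm UMIs, RPE markers at 102 CPM and no UMI of the mural or fibroblast markers. It also held 21 UMIs of Apln, 59 of Esm1, 26 of Angpt2 and 30 of Trp53i11, genes of endothelial tip cells at the front of growing vessels, and 11 UMIs of Kdr, a receptor for vascular endothelial growth factor. The highest counts in any WT endothelial barcode at 2 months were 4 Apln, 23 Esm1, 5 Angpt2 and 14 Trp53i11, and another Vldlr-/- endothelial barcode held 48 Trp53i11 UMIs. These genes were chosen after their values were seen. Esm1 is also one of the markers used here for the choriocapillaris, the capillary bed facing the RPE. The remaining Adm-positive endothelial barcodes, 3 in Vldlr-/- and 2 in WT, held 1 Adm UMI each. Their Kdr counts ranged from 5 UMIs (WT, 14002 UMIs in all) to 72 (WT, 18947 UMIs in all). The 11 Kdr UMIs above lay within this range. Without the 2% of barcodes with the highest doublet scores, 19 Vldlr-/- and 2 WT UMIs remained and the ratio was 2.30. Without the endothelial sub-cluster that mixes in other cell types (16 Vldlr-/- and 2 WT UMIs) it was 1.90, and with every barcode thinned to 2000 UMIs only 2 Vldlr-/- and 0 WT UMIs remained, too few for a fold.

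**Figure D3:**
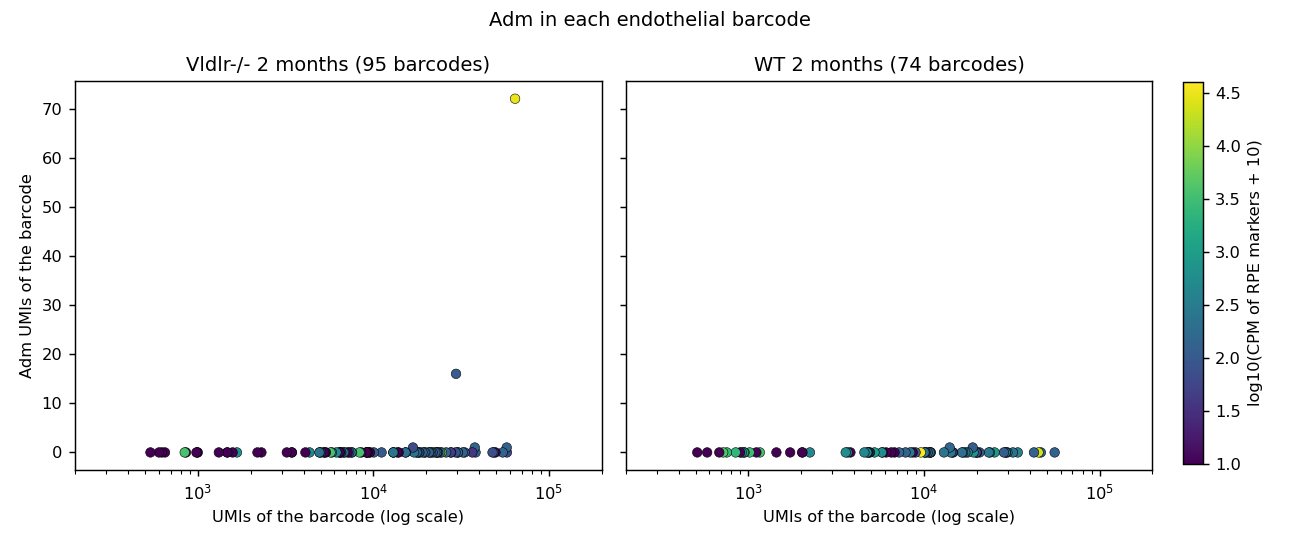
Adm UMIs against total UMIs (log axis) for single endothelial barcodes of Vldlr-/- and WT at 2 months, coloured by the CPM of the RPE markers. The barcodes with 72 and 16 Adm UMIs are both from Vldlr-/-, and the one with 72 carries RPE markers at 30313 CPM.

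In fibroblasts Adm reached 60 UMIs (20.2 CPM, 15.4 to 26) in Vldlr-/- and 24 UMIs (10.2 CPM, 6.54 to 15.2) in WT at 1 month, a log2 ratio of 0.96 (0.28 to 1.73), and 9 UMIs in Vldlr-/- and 6 in WT at 2 months. The 3 main fibroblast clusters at 1 month differed. In the smallest, 59 Vldlr-/- barcodes held 34 UMIs (54.3 CPM), 14 of them in 1 barcode, and 28 WT barcodes held 2 UMIs (7.90 CPM). The largest had 25 UMIs (14.4 CPM) in Vldlr-/- and 15 UMIs (9.30 CPM) in WT, and the remaining one had 1 UMI (1.75 CPM) in Vldlr-/- and 7 UMIs (14.5 CPM) in WT, 6 of them in 1 barcode. Thinned to 2000 UMIs per barcode, the fibroblast ratio at 1 month was 0.02. Outside these classes Adm was near 0: RPE held 5 Vldlr-/- and 3 WT UMIs at 2 months, mural barcodes 0 in Vldlr-/- and 1 in WT, and macrophages none in any library. An antisense gene, Gm28863, overlaps Adm, and whether the counting used strand was not given.

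Calcrl, the receptor itself (ENSMUSG00000059588, chr2:84330626-84425411, minus strand), was found in endothelial and fibroblast barcodes of all 4 libraries. In endothelial barcodes it had 254 CPM (28 UMIs) in Vldlr-/- and 459 CPM (10 UMIs) in WT at 1 month, and 186 CPM (164 to 209) in Vldlr-/- and 139 CPM (116 to 165) in WT at 2 months. The 2-month log2 ratio of 0.41 (0.11 to 0.73) became 0.05 after thinning. In fibroblasts Calcrl had 289 CPM in Vldlr-/- and 250 CPM in WT at 1 month (0.21, 0.05 to 0.36), and 153 CPM in Vldlr-/- and 139 CPM in WT at 2 months (0.14, −0.12 to 0.41). At both ages the fibroblast libraries of the genotypes were close together. Mural barcodes had 29.3 CPM in Vldlr-/- and 28.9 CPM in WT at 2 months, macrophages had 13 UMIs in each genotype, and RPE held at most 3 Calcrl UMIs in any library.

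Ramp2, the partner that forms the main vascular adrenomedullin receptor (ENSMUSG00000001240, chr11:101246028-101259546, plus strand, overlapping Vps25 on the same strand), was found mainly in endothelial, fibroblast and RPE barcodes. Endothelial barcodes had 833 CPM (787 to 881) in Vldlr-/- and 725 CPM (671 to 782) in WT at 2 months, a log2 ratio of 0.20 (0.06 to 0.34). Fibroblasts had 583 CPM in Vldlr-/- and 488 CPM in WT at 1 month (0.26, 0.15 to 0.37), and 373 CPM in Vldlr-/- and 341 CPM in WT at 2 months (0.13, −0.04 to 0.29). RPE had 402 CPM in Vldlr-/- and 384 CPM in WT at 1 month (0.07, −0.24 to 0.37), and 185 CPM in Vldlr-/- and 143 CPM in WT at 2 months (0.37, 0.27 to 0.46). All these differences were under 2-fold. Within RPE the 2-month values were higher in Vldlr-/- in each of the 4 clusters with at least 30 barcodes in both genotypes, at 166, 167, 250 and 171 CPM in Vldlr-/- against 161, 138, 197 and 91.9 CPM in WT. With only RPE barcodes of at least 1000 CPM Malat1, a nuclear RNA, the 2-month RPE ratio was 0.78. Mural barcodes had 37.1 CPM in Vldlr-/- and 27.3 CPM in WT at 2 months, and macrophages held at most 3 Ramp2 UMIs in any library.

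Ramp3, the second adrenomedullin partner (ENSMUSG00000041046, chr11:6658521-6677475, plus strand), was found in endothelial barcodes and, at a lower level, in rod photoreceptors. Rods had 23.4 CPM in Vldlr-/- and 33.7 CPM in WT at 2 months, whereas mural barcodes and macrophages had none and fibroblasts and RPE at most 4 UMIs. A few T or NK barcodes at 1 month also held Ramp3, together with Calcrl in 3 of 188 in Vldlr-/- and 1 of 325 in WT. In endothelial barcodes it had 354 CPM (39 UMIs) in Vldlr-/- and 414 CPM (9 UMIs) in WT at 1 month, and 294 CPM (267 to 323) in Vldlr-/- and 331 CPM (295 to 370) in WT at 2 months. The log2 ratio at 2 months was −0.17 (−0.38 to 0.04), and it turned to 0.16 without the mixed sub-cluster, so no direction can be given. Ramp1, the partner for calcitonin gene-related peptide, was found in mural barcodes, macrophages and T or NK cells; thinned T or NK barcodes had it in 8.79% of 182 in Vldlr-/- and 7.74% of 310 in WT at 1 month. It was at 131 CPM in Vldlr-/- and 173 CPM in WT mural barcodes at 2 months (−0.40, −0.87 to 0.05) and at 74.4 CPM in Vldlr-/- and 112 CPM in WT macrophages (−0.59, −1.18 to 0.01), and endothelial barcodes held at most 1 UMI.

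Receptor parts were also counted in the same barcode, after thinning each to 2000 UMIs and leaving out shallower ones. Calcrl with Ramp2 was found in 22.2% of 81 Vldlr-/- and 13.6% of 59 WT endothelial barcodes at 2 months (unthinned, 61.1% of 95 Vldlr-/- and 54.1% of 74 WT barcodes). Calcrl with Ramp3 was found in 11.1% of Vldlr-/- and 11.9% of WT endothelial barcodes, and all 3 genes in 5 Vldlr-/- and 4 WT barcodes. Among fibroblasts Calcrl with Ramp2 was found in 25.6% of 403 Vldlr-/- and 18.1% of 277 WT barcodes at 1 month, and in 12.7% of 166 Vldlr-/- and 11.9% of 126 WT barcodes at 2 months. Fibroblasts therefore carried both parts of a RAMP2 receptor, with almost no Ramp3. RPE barcodes carried Ramp2 without Calcrl, in 49.4% of Vldlr-/- and 41.7% of WT barcodes at 1 month and in 26.4% of Vldlr-/- and 21.6% of WT barcodes at 2 months, and no thinned RPE barcode held the pair. As a level for free RNA, rods thinned to the same depth had Ramp2 in 0% of barcodes in 3 libraries and 2.63% in 1. Calcrl with Ramp1 was found, unthinned, in 17.4% of 46 Vldlr-/- and 14.5% of 55 WT mural barcodes at 2 months. Macrophages at 2 months had this pair in 5.45% of 55 Vldlr-/- and 10.5% of 57 WT barcodes. T or NK cells at 1 month had it in 12 of 188 Vldlr-/- and 18 of 325 WT barcodes. After thinning, at most 1 barcode of each held it.

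**Figure D4:**
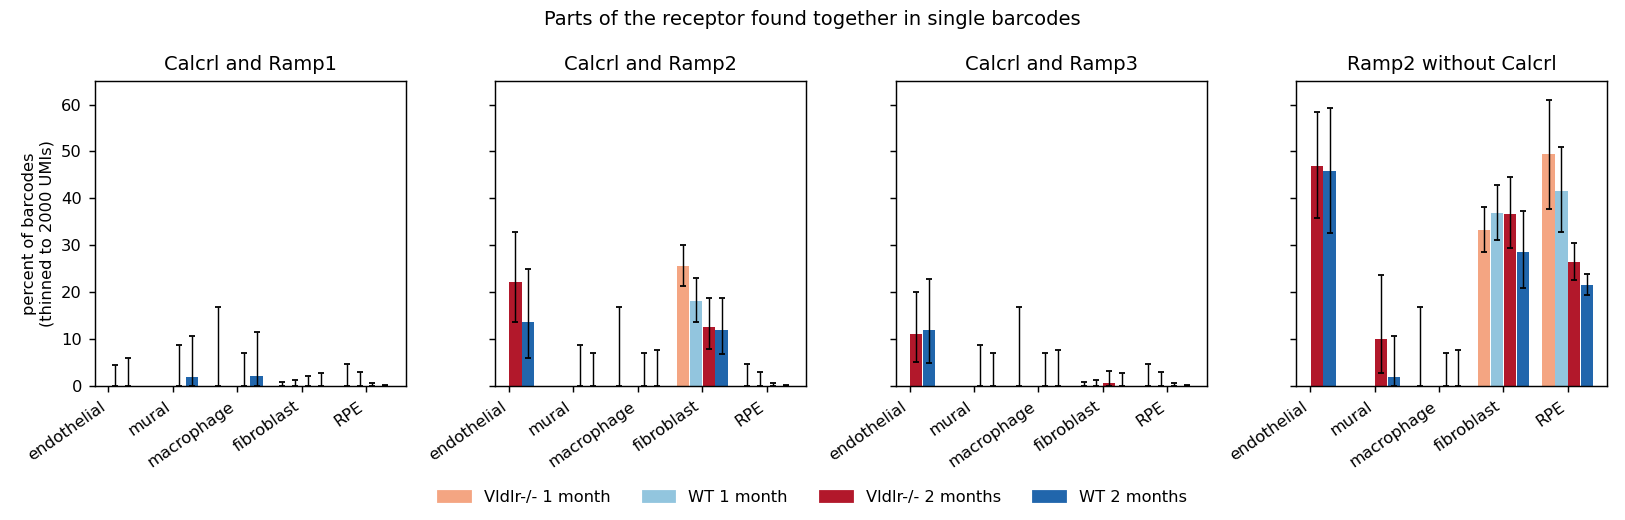
Percent of barcodes, thinned to 2000 UMIs, with Calcrl and its partners, by class and age with Vldlr-/- left of WT; bars are exact binomial 95% intervals. Endothelial barcodes and fibroblasts hold Calcrl together with Ramp2, and RPE holds Ramp2 without Calcrl.

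Of 13 other genes of adrenomedullin and related peptides, Adm2, Calcb and Iapp had no UMI in the 5 classes, and Calca and Calcr had at most 3. In endothelial barcodes 6 were measured, 5 higher and 1 lower, with a median log2 ratio of 0.23 against 0.051 for all genes. Ackr3, a receptor that binds adrenomedullin and the chemokine CXCL12 without G protein signalling, was higher in Vldlr-/- in the endothelial, mural and fibroblast comparisons. It had 34.3 CPM (102 UMIs) in Vldlr-/- and 10.6 CPM (25 UMIs) in WT fibroblasts at 1 month (1.67, 1.05 to 2.38), and 38.0 CPM in Vldlr-/- and 19.2 CPM in WT fibroblasts at 2 months (0.97). Mural barcodes had 64.5 CPM in Vldlr-/- and 24.0 CPM in WT (1.40, 0.50 to 2.41), and endothelial barcodes 54.9 CPM in Vldlr-/- and 33.4 CPM in WT (0.70). In RPE its ratio was −0.61 at 1 month and 0.36 at 2 months. Gnas, the stimulatory G protein subunit through which the receptor signals, and Cpe, a peptide-processing enzyme, had endothelial ratios of 0.09 and 0.18. Pam, the enzyme that amidates adrenomedullin, had 345 CPM in Vldlr-/- and 305 CPM in WT fibroblasts at 1 month, and 286 CPM in Vldlr-/- and 309 CPM in WT fibroblasts at 2 months.

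Igfbp3, a secreted carrier of insulin-like growth factors (ENSMUSG00000020427, chr11:7206086-7213923, minus strand; its promoter window holds 2 core matches, shown above), was one of the leading genes of the endothelial cluster. At 1 month it had 3378 CPM (372 UMIs) in Vldlr-/- and 1654 CPM (36 UMIs) in WT endothelial barcodes, from 22 Vldlr-/- and 5 WT barcodes. At 2 months it had 2455 CPM (3666 UMIs, 2376 to 2536) in Vldlr-/- and 1415 CPM (1313 UMIs, 1339 to 1494) in WT endothelial barcodes. The 2-month difference was 1.73-fold, a log2 ratio of 0.79 (0.70 to 0.89). The level was higher in Vldlr-/- under every alternative run, at 0.44 after thinning and 0.60 as a mean over barcodes. The share of thinned barcodes with any Igfbp3 UMI was not higher, at 75.3% of 81 in Vldlr-/- and 78.0% of 59 in WT. One Vldlr-/- barcode held 446 of the UMIs, and without the barcode with most UMIs the ratio was 0.69. The class differed between the genotypes in other cells' markers: red blood cell markers summed to 535 CPM in Vldlr-/- and 5 CPM in WT, fibroblast markers to 1247 CPM in Vldlr-/- and 530 CPM in WT, and mural markers to 2515 CPM in Vldlr-/- and 4194 CPM in WT. The part of these in the Igfbp3 difference was not tested.

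Endothelial barcodes were divided into 4 sub-clusters to see where the members lie. The sub-cluster led by the interferon-induced genes Cxcl10, Cxcl9 and Gbp2 had most markers of the choriocapillaris, the fenestrated capillary bed facing the RPE (9888 CPM over the 4 libraries). It had Ramp3 at 487 CPM, Igfbp3 at 3180 CPM and Calcrl at 236 CPM. Another was led by Cytl1, Igkc, Fabp4, Edn1, Azin1, Bmx, Cd74 and Gkn3, of which Igkc and Cd74 also lead the B cell cluster. It had most artery markers of the 4 (710 CPM) and, by a small margin, most vein markers (296 CPM, the next at 291 CPM). Beside these it had choriocapillaris markers at 3028 CPM, so no single vessel type is named for it. Red blood cell markers in it were at 1527 CPM in Vldlr-/- and 0 CPM in WT at 2 months. This sub-cluster had Ramp3 at 148 CPM, Igfbp3 at 1192 CPM and Calcrl at 120 CPM. The sub-cluster of 27 Vldlr-/- and 21 WT barcodes at a median of 26010 UMIs was led by genes of fibroblasts, mural cells and RPE. At 2 months this mixed sub-cluster held 796367 of the 1493229 Vldlr-/- and 535110 of the 927989 WT endothelial UMIs. The pooled endothelial levels and ratios therefore draw mostly on these barcodes. The remaining sub-cluster was led by hemoglobin genes. At 2 months Igfbp3 in the Cxcl10-led sub-cluster was at 3603 CPM in 28 Vldlr-/- and 2353 CPM in 23 WT barcodes, and in the Bmx-containing one at 1267 CPM in 19 Vldlr-/- and 817 CPM in 18 WT barcodes. The mixed sub-cluster had 2341 CPM in Vldlr-/- and 1289 CPM in WT, and the hemoglobin-led one had 1112 CPM in Vldlr-/- and 1224 CPM in WT. Igfbp3 was thus higher in Vldlr-/- in 3 of the 4 sub-clusters.

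Fibroblasts had less Igfbp3 than endothelial barcodes and a wider gap at 2 months. They had 116 CPM (344 UMIs) in Vldlr-/- and 81.7 CPM (192 UMIs) in WT at 1 month, a log2 ratio of 0.50 (0.24 to 0.76), and 53.9 CPM (109 UMIs) in Vldlr-/- and 17.8 CPM (25 UMIs) in WT at 2 months, a log2 ratio of 1.57 (0.96 to 2.29) or 2.98-fold. One Vldlr-/- barcode held 27 of the 109 UMIs. Over the alternatives the 2-month ratio lay between 1.00 and 2.52, the highest with classes set barcode by barcode. Mural barcodes held 3 Igfbp3 UMIs in Vldlr-/- and 14 in WT at 2 months, macrophages at most 1 and RPE at most 5. Endothelial markers summed to 610 CPM in Vldlr-/- and 519 CPM in WT fibroblasts at 2 months. Among the other genes of the insulin-like growth factor axis, Igf1 was also higher in Vldlr-/- fibroblasts, at 431 CPM against 217 CPM in WT at 1 month (0.99) and with a ratio of 1.41 (1.05 to 1.79) at 2 months. In endothelial barcodes 6 of 8 measured were higher and 2 lower, among them Igfbp5 at 1.36 (1.25 to 1.47) and Igf2 at 1.53. Igfbp5 is also a leading gene of the fibroblast clusters, and fibroblast markers in the endothelial class were at 1247 CPM in Vldlr-/- and 530 CPM in WT; their part in this difference was not tested. Igfbp5 was higher in Vldlr-/- mural barcodes too, at 1.22, whereas Igfbp2 was lower there, at −1.35.

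Bnip3, a mitochondrial outer membrane protein that recruits the autophagy machinery (ENSMUSG00000078566, chr7:138890836-138909519, minus strand), has the promoter window with most core matches of the set. In macrophages at 2 months it had 33 UMIs (48.1 CPM, 33.1 to 67.6) in Vldlr-/- and 5 UMIs (11.4 CPM, 3.7 to 26.6) in WT, a log2 ratio of 1.96 (0.71 to 3.79). One Vldlr-/- barcode held 13 of the 33 UMIs, and median depth was 10723 UMIs in Vldlr-/- and 6278 in WT macrophages; thinned to 2000 UMIs, 3 Vldlr-/- and 2 WT UMIs remained, a ratio of 0.34. Endothelial barcodes had 34 UMIs (22.8 CPM) in Vldlr-/- and 11 UMIs (11.9 CPM) in WT, a ratio of 0.90 (−0.07 to 2.07) whose interval includes 0. Fibroblasts had 22.5 CPM in Vldlr-/- and 23.8 CPM in WT at 1 month, and 25.7 CPM in Vldlr-/- and 18.5 CPM in WT at 2 months. RPE had 16.0 CPM in Vldlr-/- and 28.2 CPM in WT at 1 month, and 22.7 CPM in Vldlr-/- and 19.4 CPM in WT at 2 months. Mural barcodes had 23.4 CPM in Vldlr-/- and 22.4 CPM in WT at 2 months. No ratio measured outside macrophages passed 2-fold. Of 13 partner genes of mitophagy and mTORC1, 11 were measured in macrophages at 2 months, 7 higher and 4 lower. Their median log2 ratio was 0.28 against 0.027 for all genes, and 0 had an interval on one side of 0. In endothelial barcodes 5 were higher and 8 lower, with a median of −0.19 against 0.051. Mural barcodes had 6 higher and 5 lower. Fibroblasts had 9 higher and 4 lower at 1 month, and 5 higher and 8 lower at 2 months. RPE had 3 higher and 4 lower at 1 month, and 7 higher and 6 lower at 2 months. Gm45507 is an overlapping antisense gene.

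Ddit4, which encodes REDD1, an inhibitor of mTORC1 induced by hypoxia, by stress and by glucocorticoids (ENSMUSG00000020108, chr10:59949669-59951834, minus strand), was lower in Vldlr-/- fibroblasts at 2 months under every alternative run. Fibroblasts at 2 months had 52 UMIs (25.7 CPM, 19.2 to 33.7) in Vldlr-/- and 113 UMIs (80.5 CPM, 66.4 to 96.8) in WT, a log2 ratio of −1.64 (−2.15 to −1.16), or 0.321-fold. At 1 month fibroblasts had 96.8 CPM (85.9 to 109) in Vldlr-/- and 76.2 CPM (65.4 to 88.2) in WT, a ratio of 0.34 (0.07 to 0.62), the opposite direction. The Vldlr-/- library at 2 months was the low one of the 4. The cluster with most fibroblasts at 2 months had 24.3 CPM in Vldlr-/- and 81.9 CPM in WT, and the 2 main clusters at 1 month had 119 CPM in Vldlr-/- against 97.3 CPM in WT, and 119 CPM in Vldlr-/- against 35.1 CPM in WT.

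Ddit4 was lower in the other Vldlr-/- classes at 2 months as well. Macrophages had 10 UMIs (14.6 CPM) in Vldlr-/- and 22 UMIs (50.2 CPM) in WT (−1.74, −3.02 to −0.64), and mural barcodes 7 UMIs (13.7 CPM) in Vldlr-/- and 23 UMIs (36.9 CPM) in WT (−1.36, −2.90 to −0.16). Endothelial barcodes had 123 CPM (105 to 142) in Vldlr-/- and 161 CPM (136 to 189) in WT (−0.39, −0.71 to −0.07), a direction that turned to 0.52 after thinning. The difference was largest in the Bmx-containing sub-cluster, at 82.4 CPM in Vldlr-/- and 306 CPM in WT, whereas the Cxcl10-led one had 138 CPM in Vldlr-/- and 105 CPM in WT. RPE had 21.9 CPM in Vldlr-/- and 26.5 CPM in WT (−0.27, −0.54 to −0.02), and this direction also turned, to 0.16, among barcodes with at least 1000 CPM Malat1.

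Because Ddit4 is also a glucocorticoid target, 9 other glucocorticoid-induced genes were followed. At 2 months 8 of 9 were lower in Vldlr-/- in each of endothelial, mural, macrophage and fibroblast barcodes, with median log2 ratios of −0.65, −0.32, −1.13 and −0.46 in that order, against medians of 0.051, 0.029, 0.027 and 0.008 over all genes. In macrophages 5 of the 9 were at least 2-fold lower, where 3.27% of all genes were. Fkbp5, a chaperone partner of the glucocorticoid receptor, had 273 CPM (187 UMIs) in Vldlr-/- and 794 CPM (348 UMIs) in WT macrophages, a ratio of −1.54. Tsc22d3, which encodes GILZ, was at −1.59, Zbtb16 at −1.77, Cdkn1a at −1.68 and Per1 at −1.13. Mural barcodes had 3 at least 2-fold lower (Fkbp5 −1.13, Tsc22d3 −1.10, Cdkn1a −1.34), endothelial barcodes 1 (Cdkn1a −1.25) and fibroblasts 1 (Errfi1 −1.20). In RPE at 2 months 3 were higher and 6 lower with a median of −0.14, and in 1-month fibroblasts 4 were higher and 5 lower with a median of −0.17. All 2-month values come from the same pair of libraries, so the classes are not independent of each other. Stress response genes of the ATF4 pathway differed in direction between the comparisons. None of 3 was higher in endothelial barcodes (median −0.49, Atf3 −2.25) or in 1-month fibroblasts (median −0.69, Atf3 −1.46), and none of 4 in mural barcodes, whereas 2 of 3 were higher in 2-month fibroblasts (median 0.69, Atf3 0.87), 2 of 2 in macrophages (median 0.40) and 1 of 3 and 3 of 6 in RPE at 1 and 2 months, where the deleted gene Vldlr, itself on the list, was the one past 2-fold. Immediate early genes, which dissociation can induce, had a median of −0.57 in fibroblasts at 1 month (1 of 14 higher) and 0.41 at 2 months (10 of 14 higher), −0.21 in endothelial barcodes and −0.22 in macrophages; their part in the Ddit4 and glucocorticoid differences was not tested.

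**Figure D5:**
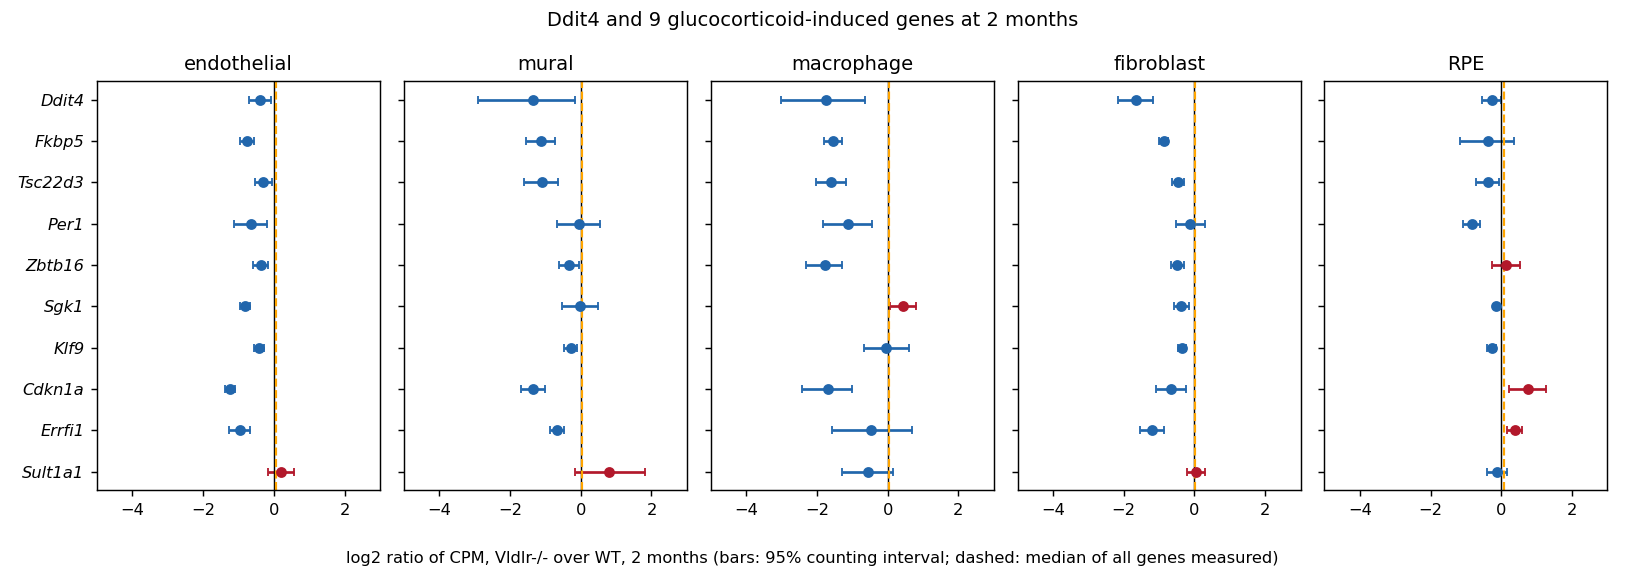
Log2 of the Vldlr-/- over the WT level of Ddit4 and 9 glucocorticoid-induced genes in the 5 classes at 2 months. The dashed line is the median of all genes measured. In each of endothelial, mural, macrophage and fibroblast barcodes 8 of the 9 listed genes lie below 0.

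Egln3, the prolyl hydroxylase PHD3 that marks HIF subunits for degradation (ENSMUSG00000035105, chr12:54178981-54203860, minus strand), was sparse. Fibroblasts held 50 UMIs (16.8 CPM) in Vldlr-/- and 20 UMIs (8.51 CPM) in WT at 1 month, a log2 ratio of 0.96 (0.21 to 1.81). Thinned barcodes held 14 UMIs in Vldlr-/- and 11 in WT, a ratio of −0.21. These thinned counts fall under the 30 UMIs set for a measured gene and are too few to give a direction. At 2 months fibroblasts held 12 UMIs in each genotype (5.93 CPM in Vldlr-/- and 8.55 CPM in WT). Macrophages held 6 UMIs in Vldlr-/- (8.75 CPM) and 0 in WT, which allows up to 6.84 CPM, and endothelial barcodes held 3 UMIs in Vldlr-/- and 0 in WT. Mural barcodes held 2 UMIs in Vldlr-/- and 7 in WT, and RPE at most 1 in any library. These counts are too low to give a difference at this depth.

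Higd1a, a mitochondrial inner membrane protein that binds the respiratory chain (ENSMUSG00000038412, chr9:121848563-121858362, minus strand, with the antisense gene Gm47112), differed little between the genotypes. RPE had 229 CPM in Vldlr-/- and 179 CPM in WT at 1 month (0.35, −0.07 to 0.77), and 164 CPM in Vldlr-/- and 158 CPM in WT at 2 months (0.05, −0.05 to 0.15). Mural barcodes had 168 CPM in Vldlr-/- and 122 CPM in WT at 2 months (0.46, 0.00 to 0.93). Endothelial barcodes had 108 CPM in Vldlr-/- and 116 CPM in WT (−0.10). Fibroblasts had 34.3 CPM in Vldlr-/- and 48.1 CPM in WT at 1 month (−0.49, −0.89 to −0.09), and 55.8 CPM in Vldlr-/- and 61.3 CPM in WT at 2 months (−0.14). Macrophages had 36.5 CPM in Vldlr-/- and 34.2 CPM in WT at 2 months.

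Of 35 other hypoxia-induced genes 25 were measured in endothelial barcodes at 2 months, 8 higher and 17 lower in Vldlr-/-, with a median log2 ratio of −0.16 against 0.051 for all genes. Slc2a1, the glucose transporter GLUT1, was lower in Vldlr-/- at 2 months in all 4 classes other than RPE (endothelial −0.68, fibroblast −0.77, macrophage −0.85, mural −0.93) and at −0.03 in RPE; at 1 month it was at 0.41 in fibroblasts and 0.51 in RPE. Hilpda, a lipid droplet protein, was at −1.13 (−1.43 to −0.84) in endothelial barcodes, and Narf was at 2.04 (0.97 to 3.51). With all-gene medians between 0.001 and 0.065, the list medians were 0.06 in mural barcodes (11 of 18 higher), 0.19 in macrophages (10 of 17), 0.05 and −0.01 in fibroblasts at 1 and 2 months (18 of 27 and 13 of 27), and 0.31 and 0.07 in RPE at 1 and 2 months (7 of 13 and 16 of 26). Genes past 2-fold included Lox in mural barcodes (1.44), Gys1 in fibroblasts at 2 months (1.06) and Bhlhe40 in RPE at 1 month (1.21). Among 9 genes of the HIF pathway and its hydroxylases, Hif1a was higher in Vldlr-/- macrophages (147 UMIs, against 43 in WT, ratio 1.12, 0.63 to 1.65) and in mural barcodes (128 UMIs, against 92 in WT, 0.76, 0.36 to 1.16). Cited2, a HIF antagonist, was at −1.40 in macrophages and 0.74 in endothelial barcodes. Whether these differences bear on those of the members was not tested. Of this list 5 were higher and 2 lower in endothelial barcodes, and 1 higher and 4 lower in macrophages. Epas1, the HIF2 subunit of vessels, had 1244 CPM in Vldlr-/- and 1547 CPM in WT endothelial barcodes (−0.32).

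The genes whose levels followed those of the members most closely were sought by Pearson correlation of log2(CPM + 10) over the 15 combinations of class and library with at least 30 barcodes, among 12480 genes, as a description of points that share libraries and depth. Ramp3 was closest to Exoc3l2 (0.999), Gpihbp1 (0.998) and Robo4 (0.998), and Igfbp3 to Card10 (0.987), Vwa1 (0.984) and Efna1 (0.981). Calcrl was closest to Slc39a10 (0.967), Nrp2 (0.961) and Bambi (0.960), and Ramp2 to S100a16 (0.975), Eif2b2 (0.914) and 9530082P21Rik (0.913). Adm was closest to Rassf9 (0.849), Snai2 (0.843) and Usp21 (0.825), and Egln3 to 9930104L06Rik (0.915), Mical2 (0.869) and Rab9 (0.868). The highest Adm point, Vldlr-/- endothelial barcodes at 2 months, rests on 1 barcode with 72 of the 91 UMIs.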

How the data were processed

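The authors deposited UMI counts per gene and barcode for 4 single-cell libraries, whole numbers without normalization, per the file headers (integer matrices written by Cell Ranger). The headers name a newer Cell Ranger at 2 months than at 1 month, and per the submitters' processing notes Cell Ranger 3.0, Seurat 4.0 and the build mm9 were used. The sources used here do not say how intronic or antisense reads were treated. Gene positions were taken from GENCODE M21 on GRCm38 by Ensembl identifier (32235 of 32285 matched).

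Of 6555 barcodes passing a minimum of 300 genes and a maximum of 30% mitochondrial UMIs, 28 marked by the doublet caller Scrublet were removed and 6527 clustered with scanpy 1.11.5 and leidenalg 0.10.2 (2000 variable genes, 30 components, 15 neighbours, resolution 1.0, 28 clusters), and the clusters were named from marker genes. The marked share (0.427%) is so low that the doublet removal is treated as not having worked. UMIs were summed per class and library and given as CPM with exact Poisson 95% intervals; shares have exact binomial intervals. Log2 ratios have exact conditional intervals, with 0.5 counts added. All cover counting error only, and no p-value was computed, with 1 library per group. Calculations were tested on simulated data. The members and lists were chosen with earlier results of these data known. Genes named are all members, list genes past 2-fold with at least 30 UMIs or else the 2 with most UMIs, and the 3 genes closest to each of 6 members, with a few others said to be chosen after their values were seen; some list genes are not reported here.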

Additional observations from a re-analysis of the deposited data

Results flagged for a closer look

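Ddit4 in fibroblasts was picked out because its genotype difference had opposite directions at the 2 ages. The log2 ratio of Vldlr-/- over WT was 0.34 (0.07 to 0.62) at 1 month, from 288 Vldlr-/- and 179 WT UMIs, and −1.64 (−2.15 to −1.16) at 2 months, from 52 Vldlr-/- and 113 WT UMIs. With 1 library per genotype and age the difference between the ages was not tested. The fibroblasts of the 2 ages also lay mostly in different clusters and were counted with different software versions, so age cannot be told apart from these.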

How the results depend on the processing

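No paired analysis was possible because the results come from no test and the labels give no replicate numbers; each group held 1 library, so no replicate was left out, and the ages were not used as replicates. Over the 35 log2 ratios of members and 431 alternative values, 388 stayed within the counting interval and 39 moved outside it. In another 4 a ratio whose interval lay on one side of 0 took the other sign. Depth was the setting that moved most: thinned to 2000 UMIs, this happened for Ddit4 in endothelial barcodes (0.52) and RPE (0.0018) at 2 months and for Egln3 in 1-month fibroblasts (−0.21), and once more for Ddit4 in RPE under a Malat1 filter given below. Other ratios after thinning were 1.86 for Adm (2 Vldlr-/- and 0 WT UMIs, no usable fold), 0.054 for Calcrl, 0.41 for Ramp2 and 0.44 for Igfbp3 in endothelial barcodes, 0.34 for Bnip3 in macrophages, 0.015 for Adm in 1-month fibroblasts and −0.091 for Higd1a in RPE at 2 months, whose interval of −0.05 to 0.15 had included 0. The cause was not tested beyond the fewer UMIs that remain.

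Without RPE barcodes under 1000 CPM Malat1 the 2-month ratios were 0.16 for Ddit4 (the other sign), 0.78 for Ramp2 and 0.21 for Higd1a. As means over barcodes they were 0.035 for Calcrl and 0.60 for Igfbp3 in endothelial barcodes, and 0.26 for Ramp2 and 0.21 for Higd1a in RPE. With classes set barcode by barcode they were 2.26 for Adm and 0.061 for Ramp2 in endothelial barcodes, 0.48 for Ramp2 in RPE and 2.52 for Igfbp3 in 2-month fibroblasts. Without the 2% highest doublet scores Adm in endothelial barcodes was at 2.30. Among alternatives chosen after seeing the data, leaving out the mixed endothelial sub-cluster moved 3 of 8 ratios outside their counting intervals. It gave 1.90 for Adm and 0.16 for Ramp3 (against −0.17, with an interval that included 0), and put Ddit4 further below 0. Leaving out the barcode with most UMIs gave 0.69 for Igfbp3. The cause of these shifts was not tested.

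With a minimum of 100 in place of 30 UMIs, genes at least 2-fold apart numbered 114 in place of 447 in endothelial, 41 in place of 284 in mural and 84 in place of 366 in macrophage barcodes, 125 in place of 397 and 85 in place of 370 in fibroblasts at 1 and 2 months, and 22 in place of 229 and 180 in place of 516 in RPE, so fewer of the low genes were counted. Stricter limits on mitochondrial UMIs or genes, subtraction of free RNA, another total, centring on the median of all genes and 2 added counts moved none of the 35 ratios outside its counting interval. The free RNA was modelled on all kept barcodes of a library, at 2 months mostly RPE (53.4% in Vldlr-/- and 71.2% in WT). Outside RPE its share was put at only 0.77 to 7.47%. The subtraction could therefore move most ratios only little, and the part of free RNA in them was not tested. Depth limits Adm and Egln3 most, with at most 91 and 50 UMIs in any class and library.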
